A study of Mus musculus with 16 samples.

Results

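The cytosolic ribosomal protein genes were taken as the rows of the brain count table whose symbol begins with Rpl or Rps and a number, together with Rpsa, Rplp0, Rplp1 and Rplp2, leaving out symbols with the pseudogene mark -ps and the ribosomal protein S6 kinases. The symbols gave 94 of 55487 genes. No measured value enters that rule, but the family itself was selected on earlier results of the same read counts, in which the contrasts of genotype and treatment were known, so its difference between genotypes is given as a description. By annotation and by name, 77 of the 94 encode canonical ribosomal proteins and are called core members here: 43 of the large subunit, 31 of the small subunit and 3 of the P-stalk. A further 16 are paralogs, retrogenes or processed copies. The last, Rps19bp1, is named for binding Rps19 and is not itself a ribosomal protein.

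RNA was sequenced from 16 libraries of bulk brain, each taken to be 1 female mouse, on a C57BL/6J background, with 4 in each of 4 groups. All mice, controls included, carried a human CETP transgene, and all ate a diet with 1% cholesterol from 11 weeks of age. CETPtg mice carried that transgene alone. APPtg/CETPtg mice also carried human APP with the Swedish and Indiana mutations, which the Thy1 promoter drives in neurons, so that this model changes APP in neurons rather than in every brain cell. Evacetrapib, an inhibitor of CETP, was injected daily into the peritoneum at 30 mg/kg for 11 weeks, and the controls received the vehicle. There were thus 8 CETPtg mice and 8 APPtg/CETPtg mice, and no mouse without the CETP transgene was analysed here. The labels name the libraries A to H and S1 to S8 and do not say whether any came from the same litter or cage.

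Ribosomal proteins coat and fold the ribosomal RNAs, and 1 copy of nearly each of them sits in every cytosolic ribosome. The small subunit reads the messenger RNA, the large subunit joins the amino acids, and the P-stalk of the large subunit recruits the elongation factors. Most of their messenger RNAs begin with a C followed by a run of pyrimidines (the 5′ TOP motif), through which the mTORC1 pathway and the RNA-binding protein LARP1 adjust their translation. In the brain, neurons also keep ribosomes in dendrites and axons.

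The starts of some of these genes are shown because the pyrimidine run is the sequence the family is known for. RefSeq promoter windows (GRCm38.p6) were at hand for 69 of the 94 members and 57 of the 77 core members. Each sequence below runs from 10 bases before to 20 bases after an annotated start, 30 bases on the gene's strand, and capitals mark a C-led run of at least 5 pyrimidines. The first 4 are the starts of Rps10 at chr17:27635225-27635254 (minus strand), Rps21 at chr2:180257369-180257398 (plus), Rps15a at chr7:118116128-118116157 (minus) and Rpl15 at chr14:18270967-18270996 (minus), all of which hold the run at the start itself. The last 3 are those of Rpl27 at chr11:101442235-101442264 (plus), Rps19 at chr7:24884582-24884611 (plus) and Rps16 at chr7:28350679-28350708 (plus), which hold no such run in this window. For Rps21 and Rps19 the first of several annotated starts is shown. Another start of Rps21 has no run, and another start of Rps19, at chr7:24884903-24884932, has one within 10 bases.
Rps10: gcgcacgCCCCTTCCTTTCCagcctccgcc
Rps21: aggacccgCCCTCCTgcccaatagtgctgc
Rps15a: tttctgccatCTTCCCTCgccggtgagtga
Rpl15: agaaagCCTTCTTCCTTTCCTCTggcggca
Rpl27: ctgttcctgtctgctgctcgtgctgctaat
Rps19: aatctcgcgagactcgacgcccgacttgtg
Rps16: ttctgtcgtgacgtagcactcaatgcgcct

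A C followed by at least 4 pyrimidines stood exactly at an annotated start in 13 of the 57 core members (22.8%), against 3.01% of the 27025 genes in the promoter table. Within 10 bases of a start it was found in 34 core members (59.6%), against 34.4% of all genes. A longer run, a C and at least 6 pyrimidines within 50 bases, was found in 49 (86.0%) against 44.5%. The letters TATAAA, searched on both strands in the 50 bases before the start, were in none of the 57 and in 4.17% of all genes. These are matches of letters at annotated starts, and the annotated start of a gene need not be the one used in brain.

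In terms of abundance, the family took between 1.13% and 1.41% of the counted reads of a mouse, where a mouse had 21391335 to 55453789 counted reads. Levels of different genes are comparable only per length, so CPM (read counts scaled to an equal effective library size) were divided by the length of the merged exons in kilobases. On this scale the core members ran from 17.7 to 1010 CPM per kb, with a median of 85.6 and quartiles of 45.9 and 121. Rplp1, an acidic protein of the P-stalk, had the highest level, 1010 ± 90.6 CPM per kb (SD over 16 mice). Rps15, of the small subunit head, followed at 516 ± 48.5, then Rps29 at 321 ± 38.1, Rpl36 at 281 ± 25.5 and Rpl19 at 253 ± 22.8. The ranges of 1 SD around the mean overlapped between Rps29 and Rpl36 and between Rpl36 and Rpl19, and those of Rplp1 and Rps15 overlapped with no other. The lowest core levels were those of Rps10 (17.7 ± 2.79) and Rps15a (19.0 ± 0.613). Some members have long annotated exons that few transcripts use. With the length of the principal transcript in place of the merged exons, Rplp1, Rps15 and Rps29 kept the top 3 ranks, while Rps10 came to 46.2 CPM per kb. Rps15a came to 23 CPM per kb. Its low level depends on its annotated lengths, 6270 bases of merged exons and 5179 of the principal transcript.

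All 77 core members had at least 909 reads in every mouse. Of the 94 members, 90 had at least 10 counts in at least 4 mice and were tested, among 18609 genes. The 4 others were copies. Rpl10l, a retrogene known from testis, had no read in any mouse, Rpl39l had at most 3 reads, Rps23rg1 at most 4 and Rps12l1 at most 8. Paralogs were low beside their parents. Rpl3l, the muscle paralog of Rpl3, lay at 0.239 CPM per kb against 144 for Rpl3, and Rpl22l1 at 10.9 against 26.1 for Rpl22. Rpl36al lay at 11.3 against 40.0 for Rpl36a. Many family members have near-identical copies in the genome: 83 of the 94 shared at least 1 stretch of 100 bases with a transcript of another gene, and 39 shared at least 50% of such stretches. How reads that match several genes were handled is not given in the sources used here, so levels of copies such as Rps3a2, Rps27rt and Rpl6l are uncertain.

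The comparison of the genotypes set APPtg/CETPtg beside CETPtg mice. Genotype went with the number in the library codes, given below, so that APP and this position cannot be told apart. Among the 8 CETPtg mice the family took less of the reads than among the 8 APPtg/CETPtg mice, with no overlap. Vehicle-treated CETPtg mice had shares of 1.14%, 1.24%, 1.16% and 1.23%, and evacetrapib-treated CETPtg mice 1.13%, 1.26%, 1.19% and 1.27%. Vehicle-treated APPtg/CETPtg mice had 1.40%, 1.38%, 1.37% and 1.41%, and evacetrapib-treated ones 1.35%, 1.40%, 1.38% and 1.39%. The highest CETPtg share, 1.27%, was below the lowest APPtg/CETPtg share, 1.35%, and CETPtg mice varied more (SD 0.055) than APPtg/CETPtg mice (SD 0.0193). The ratio of the mean shares was 1.15. It was 1.14 with nuclear protein-coding reads as the denominator and 1.15 over the core members alone. The small subunit genes took 0.438% to 0.496% of reads in CETPtg mice, against 0.535% to 0.562% in APPtg/CETPtg mice. The large subunit genes with the P-stalk took 0.681% to 0.763% and 0.799% to 0.834%.

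**Figure D1:**
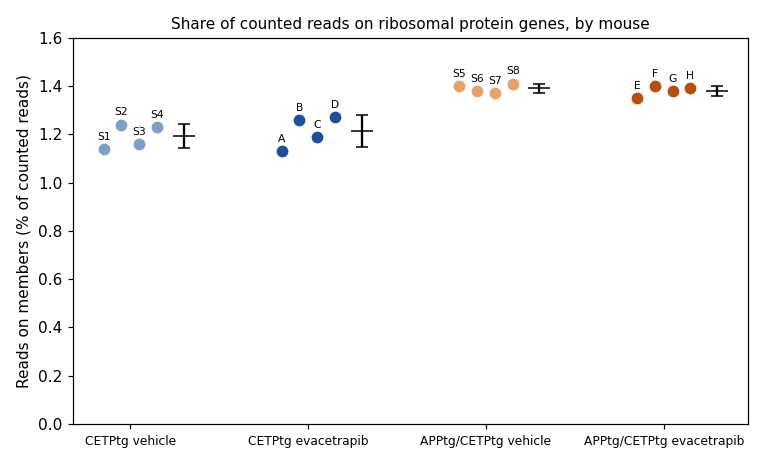
Reads on the 94 family members as a percentage of all counted reads (vertical axis, from 0) for each mouse, by group, with its library name; black marks give the mean and SD of 4 mice. All 8 APPtg/CETPtg mice lie between 1.35% and 1.41%, above all 8 CETPtg mice at 1.13% to 1.27%.

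Gene by gene, the shift was small and nearly uniform in direction, though not in size. Over all mice, 89 of the 90 tested members had a positive log2 fold change of APPtg/CETPtg over CETPtg, with a median of 0.19 (1.14-fold) and quartiles of 0.13 and 0.23. Over all 18609 genes the median was 0.0046, and 51.2% of genes were positive. By edgeR's quasi-likelihood test, with an adjusted p of at most 0.05 over all genes (a call; a small minimum fold change was also set, and it removed no gene), 70 members rose and none fell. Of all genes tested, 9.28% were called higher and 8.45% lower. Since the family was chosen with this contrast known, the count describes it and does not test it. The 8 mice of 1 genotype lay wholly above the 8 of the other for 35 members, where 1.74% of all genes tested did so. Among core members, 36 of 43 of the large subunit, 27 of 31 of the small subunit and all 3 of the P-stalk rose, and all 77 were positive, from 0.04 to 0.42.

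**Figure D2:**
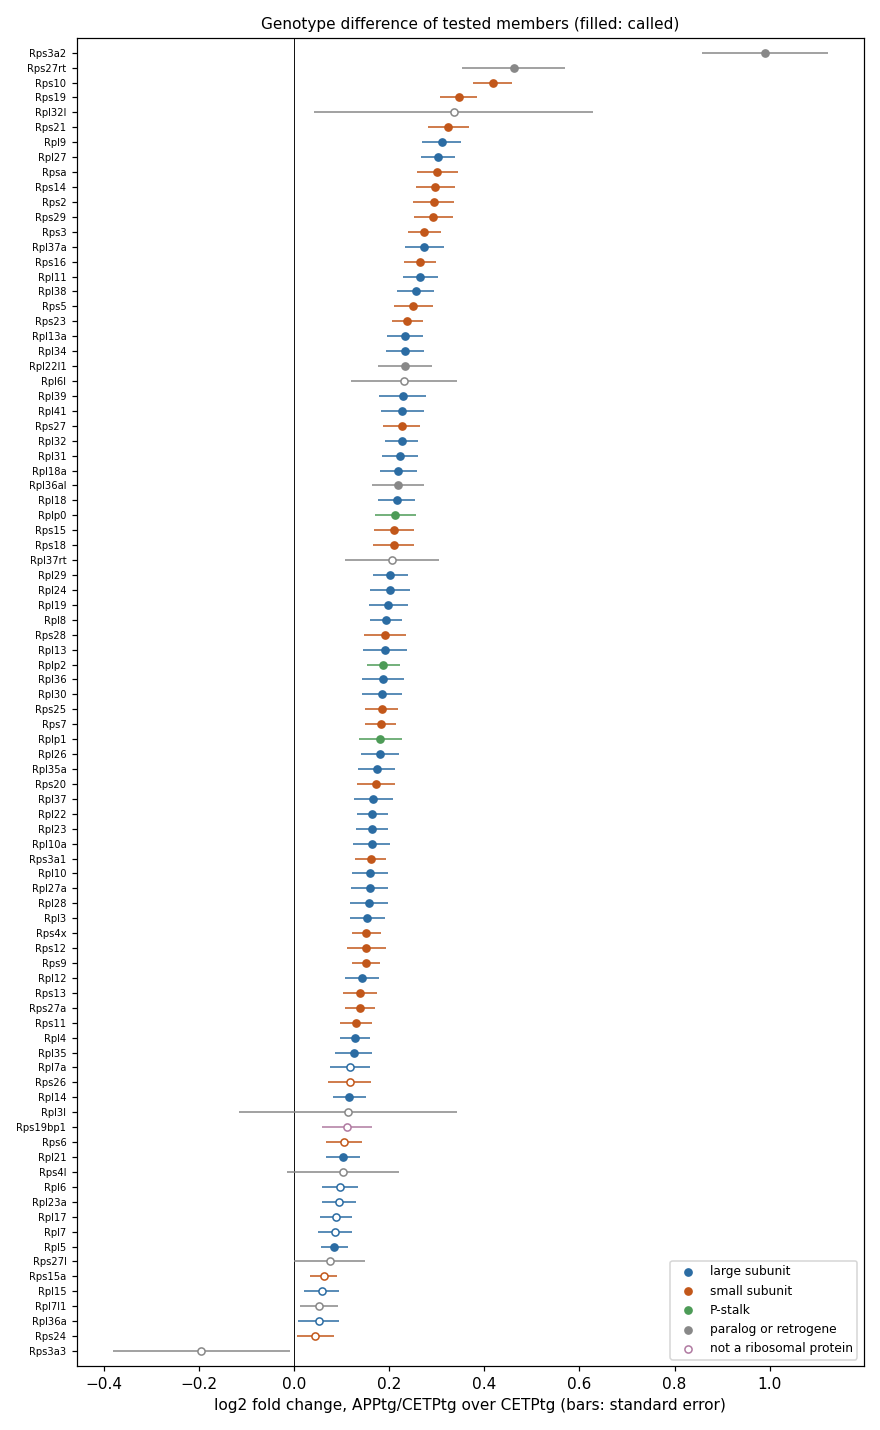
Log2 fold change of APPtg/CETPtg over CETPtg mice (horizontal axis) with its standard error for 88 of the 90 tested members, sorted, coloured by subunit or class, filled where called. All but Rps3a3 lie to the right of 0, and most core members lie between 0.10 and 0.30.

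The small subunit held the core genes that moved most. Rps10, a protein of the small subunit near the messenger RNA entry site, had 33.7, 34.3, 32.1 and 36.7 CPM in vehicle-treated and 34.5, 36.6, 34.9 and 38.0 in evacetrapib-treated CETPtg mice. Among the APPtg/CETPtg mice the values were 44.1, 47.0, 49.3 and 46.3 with vehicle and 43.1, 50.6, 45.5 and 49.0 with evacetrapib. The genotypes did not overlap, and the log2 fold change was 0.42 (SE 0.0414, edgeR adjusted p = 9.53e-07).

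Rps19, needed to mature the small subunit and the gene most often mutated in Diamond-Blackfan anaemia, had 97.1, 104, 94.7 and 98.3 CPM in vehicle-treated and 101, 114, 102 and 109 CPM in evacetrapib-treated CETPtg mice. The APPtg/CETPtg mice had 135, 139, 128 and 131 CPM with vehicle and 124, 133, 129 and 122 CPM with evacetrapib. Again every APPtg/CETPtg mouse was higher, with a log2 fold change of 0.35 (SE 0.0389, edgeR adjusted p = 4.69e-06).

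Other small subunit genes followed. Rps21 ran from 145 to 169 CPM in CETPtg and from 183 to 217 in APPtg/CETPtg mice (log2 fold change 0.32), and Rps14, which sits on the platform of the subunit, from 167 to 193 and from 208 to 251 (0.30). Rps3, which lines the entry of the messenger RNA channel and also has roles in DNA repair, ran from 209 to 241 and from 256 to 292 CPM (0.27). These 3 did not overlap between genotypes. Rpsa, also known as the precursor of the laminin receptor, rose by a log2 fold change of 0.30, with 1 CETPtg mouse at 381 CPM above the lowest APPtg/CETPtg mouse at 373. Rps16, Rps23 and Rps29 rose by 0.27, 0.24 and 0.29.

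On the large subunit, Rpl9 led with a log2 fold change of 0.31 (182 to 216 CPM against 227 to 278). Rpl27 followed at 0.30 (53.1 to 62.7 against 69.2 to 75.5). Rpl11, which with Rpl5 and the 5S rRNA binds Mdm2 when ribosome assembly is disturbed, rose by 0.26 (117 to 135 CPM against 137 to 161), and Rpl5 by 0.08. The P-stalk genes Rplp0, Rplp2 and Rplp1 rose by 0.21, 0.19 and 0.18. The ranges of the genotypes overlapped for all 3. Rplp1, the gene of the highest level, ran from 421 to 524 CPM in CETPtg and from 489 to 566 in APPtg/CETPtg mice. Rps27a, made as a fusion with ubiquitin, rose by 0.14.

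Of the core members, 11 did not pass the test: Rpl6, Rpl7, Rpl7a, Rpl15, Rpl17, Rpl23a, Rpl36a, Rps6, Rps15a, Rps24 and Rps26. They were named because they are the complete set, after their values were seen. Rps6, the target of the S6 kinases, had a log2 fold change of 0.10 (SE 0.0374, adjusted p = 0.0556). The smallest core value was that of Rps24, 0.04 (SE 0.0387), with 167 to 197 CPM in CETPtg and 181 to 213 CPM in APPtg/CETPtg mice. Rps15a had 0.06 (SE 0.0288) and Rpl15 0.06 (SE 0.0365). Rps15a and Rpl15 carry the pyrimidine run at an annotated start, as Rps10 and Rps21 do. Of the 13 core members with the run at the start, 10 rose, with a median of 0.17. Of the 44 without it, 39 rose, with a median of 0.19. With the run within 10 bases of a start, 26 of 34 rose (median 0.17), and without it 23 of 23 (0.19). With the longer run within 50 bases, 41 of 49 rose (0.18), and without it 8 of 8 (0.18). None of these splits was tested.

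Among the copies and paralogs, 12 were tested and 4 rose. Rps3a2, a processed copy of Rps3a1, had the largest fold change of the family. It had 0.841, 0.995, 0.894 and 1.27 CPM in vehicle-treated and 0.948, 1.56, 1.12 and 1.11 in evacetrapib-treated CETPtg mice. The APPtg/CETPtg values were 2.0, 2.30, 2.51 and 2.17 CPM with vehicle and 2.26, 2.11, 1.71 and 2.13 with evacetrapib. The genotypes did not overlap, and the log2 fold change was 0.99 (SE 0.132, edgeR adjusted p = 3.27e-05), while Rps3a1 rose by 0.16. Of the stretches of 100 bases in Rps3a2, 78.6% also occur in another gene.

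Rps27rt, a retrogene of Rps27, rose by 0.46 (SE 0.109), Rpl22l1 by 0.23 (SE 0.0567) and Rpl36al by 0.22 (SE 0.0542). Rpl6l (0.23), Rpl32l (0.34), Rpl37rt (0.21), Rpl3l (0.11), Rps4l (0.10), Rps27l (0.07) and Rpl7l1 (0.05) did not pass. Rps3a3 was the only member with a negative value, with a log2 fold change of -0.20 (SE 0.186, adjusted p = 0.523). Rps19bp1, no ribosomal protein, had 0.11 (SE 0.0528, adjusted p = 0.156).

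The genotypes could also be compared within each treatment, in mice that the 2 comparisons do not share. In vehicle-treated mice 65 members rose and none fell, where 5.72% of all genes were called higher, and the median of the members was 0.21. In evacetrapib-treated mice 22 rose and none fell, where 1.39% of all genes were called higher, and the median was 0.15. All 22 were among the 65. The 25 others rose in neither. Of the 77 core members, 76 were positive in both treatments, the exception being Rpl36a with evacetrapib, -0.04. Across the 77 core members the values in the 2 treatments went together (Pearson's r = 0.809, Spearman's rho = 0.807, as a description, since genes of the same mice are not independent). Rps10 had 0.45 with vehicle and 0.39 with evacetrapib, Rps19 0.44 and 0.26, and Rpl27 0.30 and 0.31.

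These counts within a treatment rest on few mice. With vehicle, 34 members rose without S1 and 39 without S3, both CETPtg mice. With evacetrapib, 6 rose without A, 13 without C (both CETPtg), 9 without F and 14 without H (both APPtg/CETPtg). Over all mice the count stayed between 66 and 75 when any 1 mouse was left out. Fewer calls with evacetrapib do not show a smaller difference there: the test of the difference itself is given with the treatment below.

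**Figure D3:**
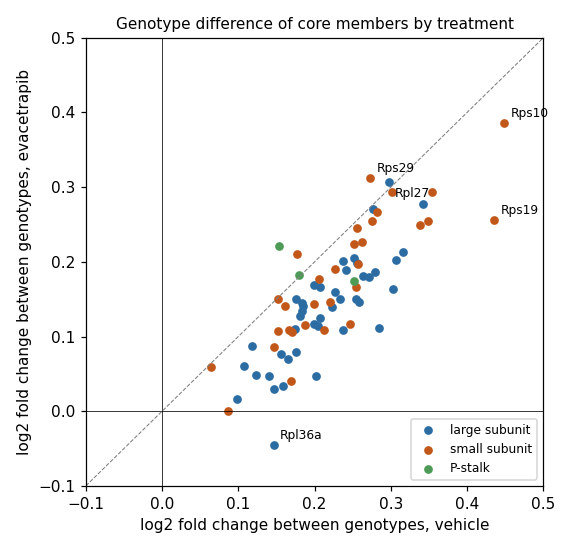
Log2 fold change of APPtg/CETPtg over CETPtg for the 77 core members, in vehicle-treated mice (horizontal) and in evacetrapib-treated mice (vertical), coloured by subunit; the dashed line marks equal values. Nearly all points lie above 0 on both axes, and 72 of 77 lie below the dashed line.

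Several measures moved with the genotype beside the family, and their part in its difference was not tested except where a value is given. Depth was among them: 7 of the 8 APPtg/CETPtg libraries, at 21391335 to 27398792 counted reads, were shallower than all 8 CETPtg libraries, at 28626139 to 46800787. The exception, S8, was the deepest library at 55453789 reads and had a family share of 1.41%. The paper gives RNA integrity, a measure of how intact the RNA was, only as a range over its samples. RNA quality could therefore not be compared between the genotypes here. Short transcripts as a class were higher in APPtg/CETPtg mice. Of 307 other coding genes with merged exons under 1 kb, 87 rose and 2 fell, with a median of 0.16, whereas of 6472 genes with exons of 5 kb or more, 231 rose and 1204 fell, with a median of -0.05. Per mouse, the median deviation of the short genes from their mean over the 16 mice was between -0.10 and -0.02 (log2 CPM) in CETPtg mice and between 0.03 and 0.13 in APPtg/CETPtg mice, and that of the family between -0.18 and -0.02 and between 0.03 and 0.13.

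With the trend of each mouse with exon length and GC content removed, estimated on genes outside the family, 54 of the 90 members rose over all mice, with a median of 0.14, where 5.47% of all genes were called higher. In vehicle-treated mice 37 then rose, with a median of 0.17, where 3.42% of all genes were called higher. In evacetrapib-treated mice 9 rose, with a median of 0.10, where 0.398% of all genes were. Rps10 (0.34), Rps19 (0.31) and Rpl9 (0.32) still rose, and Rplp1 (0.03, adjusted p = 0.703) no longer passed. Rplp0 (0.12) and Rplp2 (0.14) passed. The trend used the length of merged exons. That length was above the principal transcript for Rps10 (2311 against 887 bases), Rps19 (4685 against 774) and Rpl9 (3081 against 738). For Rplp1 both lengths were 499 bases. Whether Rps10, Rps19 and Rpl9 would still rise with principal transcript lengths in the trend was not tested.

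**Figure D4:**
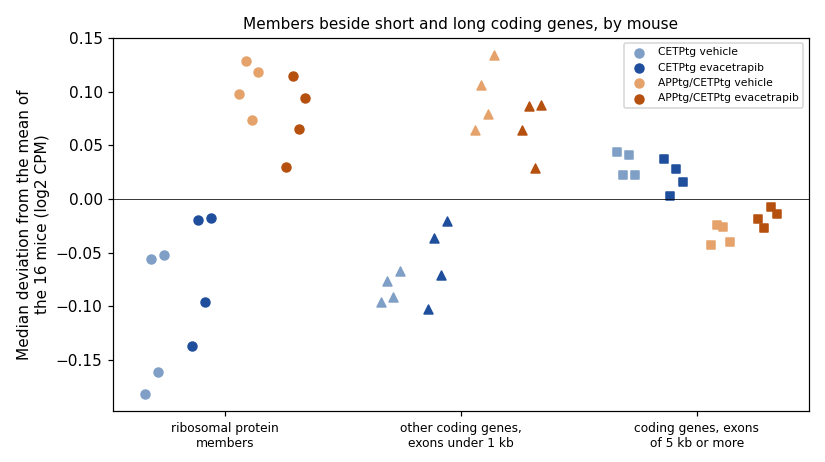
Median deviation of log2 CPM from the mean of the 16 mice (vertical axis) in each mouse, for the tested family members, for 307 other coding genes with exons under 1 kb and for 6472 coding genes with exons of 5 kb or more, coloured by group. In each class the 8 CETPtg and 8 APPtg/CETPtg mice lie on opposite sides of 0, in the long class the other way round.

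The share of mitochondrial reads was 3.28% to 4.08% in CETPtg and 2.77% to 3.45% in APPtg/CETPtg mice, ranges that overlap. The library codes in the labels, a letter and a number, put all CETPtg mice at the numbers 11 and 12 and all APPtg/CETPtg mice at 8 and 9, so that genotype and this position cannot be told apart, while both genotypes shared the letters. Evacetrapib-treated mice were at the letters G, H, A and B and vehicle-treated mice at C to F, so treatment and letter cannot be told apart either. With the letter as a block, 68 members rose. The oligodendrocyte markers had negative values in 5 of 5, of which 2 fell (among them Mbp, by 0.20), with summed levels of 3540 to 4280 CPM in CETPtg and 2750 to 3860 CPM in APPtg/CETPtg mice. Of the other fixed markers, none of 5 fell and 1 rose (Stmn2) for neurons, none rose and 1 (Gja1) of 5 fell for astrocytes, and 1 (Tmem119) of 5 rose for microglia. Of 6 markers of inhibitory neurons 2 rose (Sst and Vip), and 1 marker each fell for oligodendrocyte precursors (Pdgfra) and endothelium (Slco1a4). By sign, 3 of 5 neuronal, 3 of 6 inhibitory, 2 of 5 astrocyte, 4 of 5 microglial and 2 of 5 endothelial markers were positive. None of the 4 precursor markers was. Beside all these marker lists, 9.28% of all genes tested were called higher and 8.45% lower, so single calls in such short lists are not read as shifts of a cell type. Of 5 striatal markers 1 fell and none had a positive value, with a median of -0.16. No marker was called for excitatory neurons, mural cells, fibroblasts, choroid plexus, ependyma, blood, olfactory bulb, pituitary, cerebellum or hypothalamus. In bulk tissue fewer cells of a type and less RNA per cell cannot be told apart. The mouse gene Thy1, whose promoter drives the APP transgene, was at 865 to 2060 CPM in APPtg/CETPtg and 684 to 807 in CETPtg mice, higher in each mouse labelled APPtg. The pituitary markers reached a summed 852 CPM in 1 evacetrapib-treated APPtg/CETPtg mouse and were at most 20.6 in all other groups. Some other regional sums also varied widely within a group. In vehicle-treated APPtg/CETPtg mice choroid plexus ran from 6.44 to 452 CPM and olfactory bulb from 14.5 to 157. In vehicle-treated CETPtg mice choroid plexus ran from 9.66 to 157 and hypothalamus from 0.388 to 119. The cause of this spread was not tested.

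The members were also split by how much of their sequence other genes share. Of the 11 core members with under 10% of their stretches shared with another gene, 10 rose (median 0.19). Of the 33 with 10% to under 50%, 29 rose (0.18), and of the 33 with 50% or more, 27 (0.18). Over the 77 core members the log2 fold change between genotypes had a Pearson's r of 0.374 with the GC content of the transcripts, -0.293 with the length of the principal transcript (log2), -0.0534 with the level (log2 CPM) and -0.14 with the share of shared stretches. These are descriptions over genes that share the same mice.

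The other genes that make or regulate ribosomes did not all move with the family. Of 3 ribosomal proteins tested outside the symbol rule 2 rose, Fau (the fusion that yields eS30, 0.22) and Rack1 (a scaffold on the small subunit, 0.16). Of 18 other messenger RNAs with the 5′ TOP motif, such as translation factors, 3 rose (Btf3, Eef1b2 and Eef1g) and 1 fell (Npm1 by 0.19), with a median of 0.02. For these lists too, 9.28% of all genes tested were called higher and 8.45% lower. Eef1a1, the main elongation factor gene of this list, was at 1870 to 2130 CPM and 1960 to 2140 CPM.

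For the lists in this paragraph too, 9.28% of all genes tested were called higher and 8.45% lower. Of 18 regulators in the mTORC1 and cap-binding list, 1 rose (Mlst8) and 4 fell (Deptor, Larp1, Larp4 and Larp4b), with a median of -0.03. Larp1, the repressor of 5′ TOP translation, fell by 0.09 (SE 0.0316, adjusted p = 0.0436). Mtor had -0.05 and did not pass. Coding genes with exons of 5 kb or more also fell in 1204 of 6472 cases, with a median of -0.05. Whether exon length has a part in the values of this list was not tested. Of 13 genes for RNA polymerase I and its factors 2 rose (Polr1c and Polr1d). Of 36 ribosome assembly factors 9 rose and 1 (Ncl) fell, with a median of 0.05. Fbl, which methylates ribosomal RNA, rose by 0.22, and Eif6, which keeps the subunits apart, by 0.20. Of 10 targets of p53, 1 rose (Bax by 0.24) and 2 fell (Zmat3 and Trp53inp1), with a median of -0.02.

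The treatment comparison asked what evacetrapib changed, and no member passed its test. Over all mice, none of 90 members was called, where 2 of 18609 genes (0.0107%) were. At an unadjusted p below 0.05 there were none of 90 members, against 7.66% of all genes. DESeq2 and limma-voom called none of the members either. The median of the members was 0.01, 55 were positive, and the core members lay between -0.08 and 0.07. The smallest adjusted p of the family was 0.69. Among the members with the smallest p were Rps7 (-0.06, SE 0.0326), Rpl36a (-0.08, SE 0.0437), Rpl10 (0.06) and Rpl5 (0.04).

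In CETPtg mice none of the members was called, and of all genes 0%. At an unadjusted p below 0.05 there were 3 members of 90, against 5.55% of all genes. The median was 0.04, with 64 of 77 core members positive. The 3 were Rps19 (0.11, SE 0.0489, edgeR adjusted p = 0.864), Rps4l (-0.32) and Rpl10, which joins the large subunit late in its assembly (0.11). Rpl19 (0.11) and Rpl29 (0.10) came next. Rps4l, an autosomal paralog of the X-linked Rps4x, had 18.1, 17.0, 20.1 and 16.8 CPM with vehicle and 11.2, 19.2, 13.6 and 13.7 with evacetrapib, which overlap.

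In APPtg/CETPtg mice none of the members was called, where 1 of all genes (0.00537%) was. At an unadjusted p below 0.05 there were 2 members, against 8.73% of all genes. The median was -0.02, with 18 of 77 core members positive. With upper-quartile factors it was -0.0069 with 35 positive. Rpl36a, of the large subunit and X-linked, had 72.4, 71.5, 69.6 and 72.7 CPM with vehicle and 60.4, 68.9, 64.0 and 60.5 with evacetrapib. The treatments did not overlap, but the log2 fold change of -0.17 (SE 0.0563) had an adjusted p of 0.37 by edgeR. Rps7, which like Rpl11 is known to bind Mdm2, had 198, 193, 188 and 186 CPM with vehicle and 169, 182, 174 and 177 with evacetrapib. Here too the treatments did not overlap (-0.12, SE 0.0426, edgeR adjusted p = 0.389). In these mice the treatments were separate for 4 of the 90 tested members, also for Rpl4 and Rps13. In CETPtg mice they were separate for 1, Rpl13a. The share of all genes with such a separation was not counted. Without it, neither the counts nor the separation of single members is read as a result about the family.

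**Figure D5:**
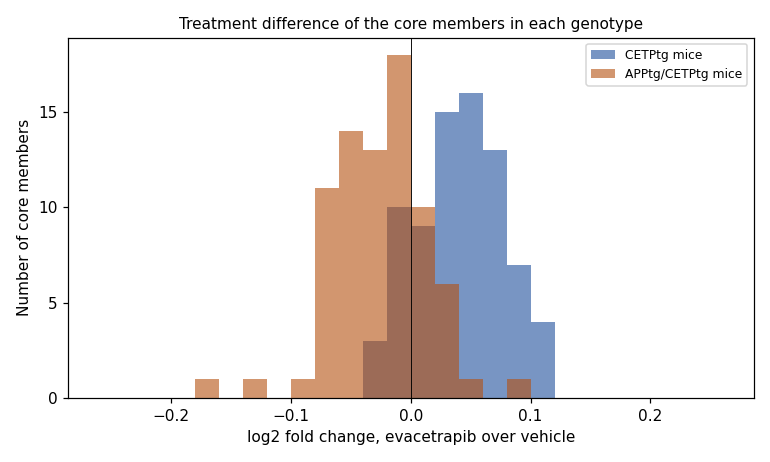
Number of core members (vertical axis) by their log2 fold change of evacetrapib over vehicle (horizontal axis, bins of 0.02) in CETPtg mice and in APPtg/CETPtg mice. In CETPtg mice 64 of 77 and in APPtg/CETPtg mice 18 of 77 members lie above 0 (35 of 77 with upper-quartile factors), and no member was called in either.

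The medians therefore had opposite signs in the 2 genotypes, and the difference of the treatment effects was tested gene by gene. None of the members was called, and of all genes 0%. At an unadjusted p below 0.05 there were 5 members, Rps19, Rpl36a, Rpl19, Rps7 and Rpl35, against 6.52% of all genes. The median difference, APPtg/CETPtg minus CETPtg, was -0.06, and 72 of 77 core members were negative. Rps19 had -0.18 (SE 0.0693, edgeR adjusted p = 0.729), the smallest p of the family. In the CETPtg mice its 4 treated values lay between 101 and 114 CPM and its vehicle values between 94.7 and 104. In the APPtg/CETPtg mice the treated values lay between 122 and 133 and the vehicle values between 128 and 139. The short coding genes outside the family had medians of 0.03 in the CETPtg mice and -0.02 in the APPtg/CETPtg mice, with a median difference of -0.06, where the family's was also -0.06.

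Members also varied together within groups. After the 4 group means were removed, log2 CPM of the 77 core members across 16 mice gave 2926 pairs with a median Pearson's r of 0.457 (quartiles 0.248 and 0.621), and 92.6% of pairs were positive. All pairs share the same libraries and their depth, so this is a description. Rpl22, Rpl39 and Rpl15 went least with the others, with a median r of 0.0552, 0.0632 and 0.0908.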

How the data were processed

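The authors enriched poly(A) RNA from bulk brain, made directional libraries and, per the labels' processing notes, used Trimmomatic 0.39, STAR 2.7.8a (mm10), Picard 2.0.1 and HTSeq. The deposited table holds raw counts per gene; the gene annotation and the handling of reads with several matches are not given in the sources used here. Members, gene lists and tests were chosen with earlier results of these data known. Genes that reached 10 counts in 4 or more of the 16 mice were tested with edgeR 4.0.16 (R 4.3.3, TMM, robust quasi-likelihood). Comparisons over all mice used an additive model of genotype and treatment. Those within a genotype or treatment, and the difference of the treatment effects, used 4 group means. Benjamini-Hochberg adjustment was over 18609 genes. CPM use TMM library sizes. No counts were pooled or dropped, and replicate pairs all differed by more than sampling noise. Lengths, GC content and shared stretches of 100 bases came from GENCODE M21. The p-values measure the spread between these libraries. Genes were named by rank of p within each contrast, by highest and lowest level, and by class; a few are not reported here. Alternatives used DESeq2 1.42.0 and limma 3.58.1 (voom), other scalings and filters, trend removal, blocks and leaving out each mouse. The method was tested on simulated data. Precision is limited by 4 mice a group; core members had at least 909 counts in each.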

Additional observations from a re-analysis of the deposited data

Results flagged for a closer look

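In 172 groups of 4 values (the named members and the family's share of reads in each group), 10 values lay far from the other 3 mice of their group. Chance alone flags about 1 in 20 such groups, and the cause was not tested for any of them. Among core members, Rpl10 was at 146 CPM in vehicle-treated APPtg/CETPtg mouse S5, against 162 to 163 in the others. Rpl19 was at 277 CPM in evacetrapib-treated CETPtg mouse B, against 240 to 246. Rpl29 was at 123 CPM in vehicle-treated APPtg/CETPtg mouse S6, against 114 to 115, and Rpsa at 373 CPM in evacetrapib-treated APPtg/CETPtg mouse E, against 420 to 426. Among copies and related genes, Rpl22l1 was at 16.4 CPM in mouse B, against 20.8 to 21.7. Rpl3l was at 0.487 CPM in evacetrapib-treated APPtg/CETPtg mouse F, against 0.369 to 0.377. Rpl7l1 was at 35.1 CPM in evacetrapib-treated CETPtg mouse A, against 32.2 to 32.5, and at 33.3 CPM in mouse E, against 32.4 to 32.5. In vehicle-treated APPtg/CETPtg mouse S7, Rps19bp1 was at 12.7 CPM, against values up to 15.1, and Rps27rt at 2.58 CPM, against 1.94 to 2.03. The family's share of reads had no such value.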

How the results depend on the processing

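Among the values recomputed under each alternative none reversed. With the length and GC trend removed, 2 members not called in either fit changed sign between genotypes, Rps4l (-0.02) and Rps19bp1 (-0.0031). No member was called for treatment in any of 115 combinations of a treatment comparison and a setting, many of which share a fit. Over all mice, the number of members higher in APPtg/CETPtg (70) ranged from 54 to 73, lowest with the length and GC trend removed. With that trend removed the vehicle count (65) was 37 and the evacetrapib count (22) was 9. Without mice S8 and A, the deepest libraries, an alternative chosen after seeing the data, the counts were 66, 52 and 6. Leaving out each mouse in turn gave 66 to 75 over all mice, 34 to 67 with vehicle and 6 to 30 with evacetrapib, and 1.14 to 1.16 for the ratio of shares. In the same fits the median of the members ranged from 0.17 to 0.19 over all mice, from 0.18 to 0.24 with vehicle and from 0.13 to 0.17 with evacetrapib. For treatment it ranged from 0.0004 to 0.02 over all mice, from 0.02 to 0.07 in CETPtg and from -0.03 to -0.0040 in APPtg/CETPtg mice, and from -0.10 to -0.05 for their difference. The cause of these changes was not tested, though the fits without a mouse hold fewer mice. The level per length of Rplp1 over the median member was 16.5, and 6.56 with principal transcript lengths. Over all genes the treatment calls depended on the tool: DESeq2 called 59 over all mice and 73 in APPtg/CETPtg mice, against 2 and 1 by edgeR. The header numbers of the count table, used as a replicate block after the data were seen, gave 70 members between genotypes and 0 for treatment. The labels pair no mice. Of 1405 values for named genes, 14 kept their direction and no longer passed the threshold.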

Other observations

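Related families that the symbol rule left out also had higher values in APPtg/CETPtg mice over all mice. Of all genes tested, 9.28% were called higher and 8.45% lower. Of the other coding genes with merged exons under 1 kb, 28.3% were called higher. Of 84 mitochondrial ribosomal protein genes (Mrpl and Mrps), which serve the separate ribosome inside mitochondria, 80 were tested, 37 rose and none fell, with a median log2 fold change of 0.12. Of 85 tested nuclear genes for respiratory chain subunits, 59 rose and none fell, with a median of 0.16. Of 319 ribosomal protein pseudogenes with -ps in their symbol, 90 had enough reads to be tested, 27 rose and none fell, with a median of 0.39. Reads of a pseudogene and of its parent cannot always be told apart. None of these families had a member called for treatment over all mice. In CETPtg and APPtg/CETPtg mice the medians for treatment were 0.04 and -0.02 for the mitochondrial ribosomal proteins and 0.04 and -0.05 for the respiratory chain, and 0.09 and 0.08 for the pseudogenes.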
